A study of Mus musculus with 6 samples.

Results

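The 10 enzymes described here make serine from a glycolytic intermediate, split serine and glycine into one-carbon units carried on folate, and break down threonine. They were taken by symbol (GENCODE mouse annotation on GRCm38) as *Phgdh*, *Psat1*, *Psph*, *Shmt1*, *Shmt2*, *Mthfd1*, *Mthfd1l*, *Mthfd2*, *Gldc* and *Tdh*, and all 10 were among the 54331 genes of the expression table. The question was how their mRNA differed between reprogramming mouse embryonic fibroblasts (MEFs) with and without active AKT, a kinase of growth factor signaling. MEFs came from several male E13.5 embryos that were mixed, from Oct4-EGFP transgenic mice on a mixed background of C57BL/6, DBA/2 and ICR. All cells of both groups were transduced with retroviruses for Oct4, Sox2 and Klf4 (OSK) and for AKT-MER, in which AKT is joined to an altered estrogen receptor and is switched on by 4-hydroxytamoxifen (4OHT). At 3 days postinfection (dpi) the transduced cells were replated, and 3 wells received 1 µM 4OHT (OSKA + 4OHT group) while 3 wells received ethanol (OSKA − 4OHT group). RNA was taken at 10 dpi. The wells thus share a pool of embryos and, as far as the methods tell, an infection, so a p-value measures the spread between wells. The retroviral AKT-MER is not the endogenous kinase, and each well is a mixed culture in which fewer cells of a type and less RNA per cell cannot be told apart.

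Serine is made from 3-phosphoglycerate in consecutive steps by phosphoglycerate dehydrogenase, phosphoserine aminotransferase and phosphoserine phosphatase, and the aminotransferase step turns glutamate into α-ketoglutarate. Serine hydroxymethyltransferases then pass a carbon of serine to tetrahydrofolate and leave glycine, in the cytosol and in mitochondria, and the MTHFD enzymes interconvert the folate-bound carbon for purine, thymidylate and methionine synthesis. Mouse embryonic stem cells are known for high threonine dehydrogenase, which feeds the same folate pool and S-adenosylmethionine through glycine.

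The values are TPM, a level corrected for transcript length, so that genes can be compared, and scaled to 1000000 per well. Nothing in them keeps the number of reads, so the sequencing depth is unknown. The number of genes above 0 was 15814 to 17692 per well without 4OHT and 17578 to 18230 with it. Of the 54331 genes, 15382 averaged at least 1 TPM over the wells. On log2(TPM + 0.5) these were compared by limma-trend, and a gene passed when its p-value, adjusted by Benjamini-Hochberg over all of them, was under 0.05. Fold changes below are on this log2(TPM + 0.5) scale, as OSKA + 4OHT over OSKA − 4OHT, with the 95% interval of the fit. The intervals are per gene and not adjusted over genes. In the OSKA + 4OHT group 542 genes (3.52%) were higher and 303 (1.97%) lower, and after TMM scaling (trimmed mean of M values) or quantile normalization the split was 456 to 480 or 428 to 434. Over all tested genes the median log2 fold change was 0.14, against 0.023 after TMM scaling and -0.0047 after quantile normalization.

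None of the 9 enzymes that could be tested passed in either direction, where 5.49% of all tested genes did. Their adjusted p-values lay between 0.167 for *Shmt1* and 0.892 for *Mthfd2*, and in no alternative fit did one fall under 0.05. At an unadjusted p under 0.05 there were 5 of 9 (21.3% of all tested genes), 3 higher (14.1% of all tested genes) and 2 lower (7.18%), and these are the same 5 whose wells did not overlap between the groups (28.2% of all tested genes). *Psph*, *Shmt2* and *Mthfd1l* lay higher in every OSKA + 4OHT well (18.1% of all tested genes did so), and *Phgdh* and *Shmt1* lay lower in every one (10%). After TMM scaling the log2 fold changes of the former were smaller, at 0.83, 0.33 and 0.38 against 0.96, 0.46 and 0.51 as reported. Those of *Phgdh* and *Shmt1* were then further below 0, at -0.85 and -1.05 against -0.72 and -0.92. The median log2 fold change of the 9 enzymes was 0.23, beside 0.14 for all tested genes.

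**Figure D1:**
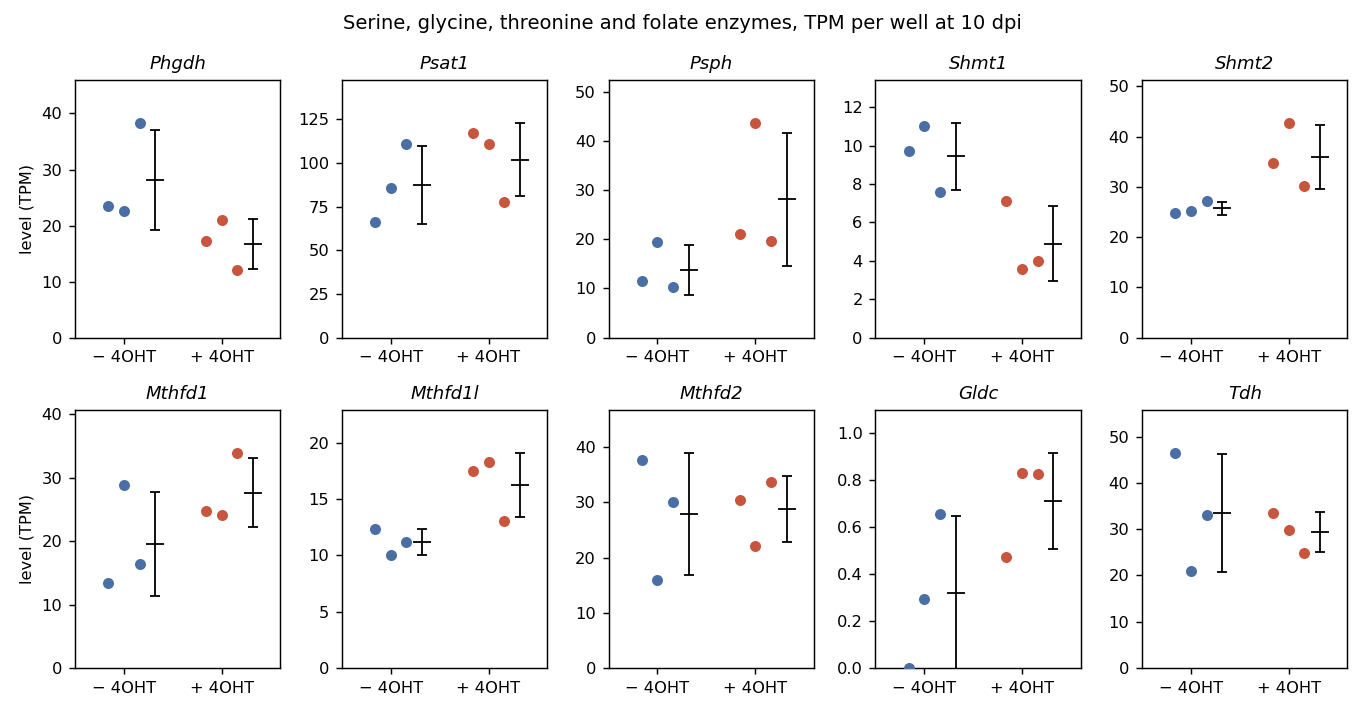
Level of each enzyme gene in TPM (vertical axes, which start at 0 and differ in range) in the 3 OSKA − 4OHT wells (blue) and the 3 OSKA + 4OHT wells (red) at 10 dpi, with replicates 1 to 3 from left to right and the mean and SD as black bars. The groups do not overlap for *Phgdh*, *Psph*, *Shmt1*, *Shmt2* and *Mthfd1l*, no enzyme passed the test over all genes, and *Gldc*, whose lower error bar ends at the axis, stayed under 1 TPM in every well.

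By level, *Psat1* stood first in both groups, with 87.6 ± 22.4 TPM without 4OHT and 102 ± 21.1 TPM with it (SD, n = 3 here and below), and its wells did not overlap those of the next gene in either group. In the OSKA − 4OHT group *Tdh*, *Phgdh*, *Mthfd2*, *Shmt2*, *Mthfd1*, *Psph*, *Mthfd1l* and *Shmt1* followed, and each of these neighbours overlapped the next in its wells. With 4OHT the order after *Psat1* was *Shmt2*, *Tdh*, *Mthfd2*, *Psph*, *Mthfd1*, *Phgdh*, *Mthfd1l* and *Shmt1*. There, gaps without overlap lay between *Mthfd1* and *Phgdh* and between *Mthfd1l* and *Shmt1*. *Gldc* was last in both groups and apart from *Shmt1*.

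In serine synthesis, the wells with 4OHT lay lower for the first enzyme and higher for the last, neither of which passed the test. *Phgdh*, the dehydrogenase that draws 3-phosphoglycerate out of glycolysis (chromosome 3, 98313170 to 98339990, minus strand), had TPM of 23.5, 22.6 and 38.3 without 4OHT (here and below in the order of replicates 1, 2 and 3) and of 17.2, 21.0 and 12.1 with it. Every well with 4OHT lay below every well without it, although the highest of the former and the lowest of the latter were close and OSKA − 4OHT replicate 3 stood above the rest. Its means were 28.1 ± 8.85 and 16.8 ± 4.46 TPM, with a log2 fold change of -0.72 (standard error 0.299, interval -1.44 to -0.0026, adjusted p = 0.232 from limma-trend). Of the 50-base words in its annotated transcripts, 47.8% also occur in other annotated genes, among which reads could have been divided. Of these genes, 17 each hold at least 1% of the words. Summed over those genes the listed level was 1.38, 0.799 and 0 TPM without 4OHT and 0, 0 and 2.53 TPM with it, the last in the well where *Phgdh* was lowest.

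*Psat1*, the aminotransferase (chromosome 19, 15904678 to 15947337, minus strand), had 66.2, 85.7 and 111 TPM without 4OHT and 117, 111 and 78.0 TPM with it. These wells overlapped, and the log2 fold change of 0.23 (interval -0.37 to 0.83, adjusted p = 0.634 from limma-trend) left room for a fall as well as a rise. With a well left out, the log2 fold change of *Psat1* was 0.044 to 0.41, and after TMM scaling it was 0.097. *Psph*, the phosphatase of the last step (chromosome 5, 129765558 to 129787449, minus strand), had 11.6, 19.5 and 10.2 TPM without 4OHT and 21.1, 43.7 and 19.6 TPM with it. Its groups met without overlapping, at 19.5 against 19.6 TPM, and OSKA + 4OHT replicate 2 alone was above 40 TPM. The means were 13.8 ± 5.02 and 28.1 ± 13.5 TPM, a log2 fold change of 0.96 (standard error 0.390, the largest among the 9 enzymes, interval 0.019 to 1.90, adjusted p = 0.227 from limma-trend). With a well left out it was 0.60 to 1.23, the lowest without OSKA + 4OHT replicate 2. *Cct6a*, a chaperonin gene on the opposite strand, shares 452 bases with *Psph* and lay at 179 to 241 TPM without 4OHT and 231 to 307 TPM with it. The library kit marks strand, but whether the quantification used it is not given in the sources used here, and the part of *Cct6a* in the *Psph* value was not tested.

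Within each well the level of *Psat1* relative to *Phgdh* is free of any scaling between libraries. It was 2.81, 3.80 and 2.89 without 4OHT and 6.80, 5.31 and 6.46 with it. The groups were apart, and the spread within each was narrower on the log scale than for either gene alone. On the log2 scale the ratio was 0.95 higher with 4OHT, and the exact 2-sided permutation test gave p = 0.1, the smallest p that 3 wells against 3 allow (0.2 after Benjamini-Hochberg adjustment over the 4 ratios computed). Leaving out a well in turn gave 0.87 to 1.09.

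For the paired hydroxymethyltransferases the wells with 4OHT lay on opposite sides of the controls, again without passing the test. *Shmt1*, the cytosolic enzyme (chromosome 11, 60788104 to 60811718, minus strand), had 9.74, 11.0 and 7.57 TPM without 4OHT and 7.14, 3.56 and 4.00 TPM with it. All wells with 4OHT were lower, replicate 1 only just. Its means were 9.45 ± 1.75 and 4.90 ± 1.95 TPM, with a log2 fold change of -0.92 (standard error 0.321, interval -1.70 to -0.15, adjusted p = 0.167 from limma-trend), the lowest adjusted p among the enzymes. *Smcr8*, which overlaps it on the opposite strand, lay between 8.34 and 11.1 TPM in all wells.

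*Shmt2*, the mitochondrial enzyme (chromosome 10, 127517123 to 127522444, minus strand), had 24.8, 25.2 and 27.2 TPM without 4OHT and 34.8, 42.8 and 30.2 TPM with it. The OSKA − 4OHT wells were close together and all OSKA + 4OHT wells were above them. Its means were 25.7 ± 1.29 and 35.9 ± 6.39 TPM, with a log2 fold change of 0.46 (standard error 0.181, interval 0.024 to 0.89, adjusted p = 0.214 from limma-trend). The last 32 bases of *Shmt2* overlap the end of *Ndufa4l2* on the opposite strand. The level of that gene differed along with it, at 20.3, 2.19 and 0 TPM without 4OHT and 101, 90.5 and 92.4 TPM with it, and its part in the *Shmt2* value was not tested. The within-well ratio of *Shmt2* to *Shmt1* was 2.54, 2.29 and 3.59 without 4OHT and 4.87, 12.0 and 7.55 with it. As every well with 4OHT was higher for *Shmt2* and lower for *Shmt1*, this ratio had to separate the groups and give the smallest possible p. Its test thus adds nothing to the separation of the single genes. The difference was 1.38 on the log2 scale (exact 2-sided permutation p = 0.1, adjusted 0.2), and 1.07 to 1.68 with a well left out.

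**Figure D2:**
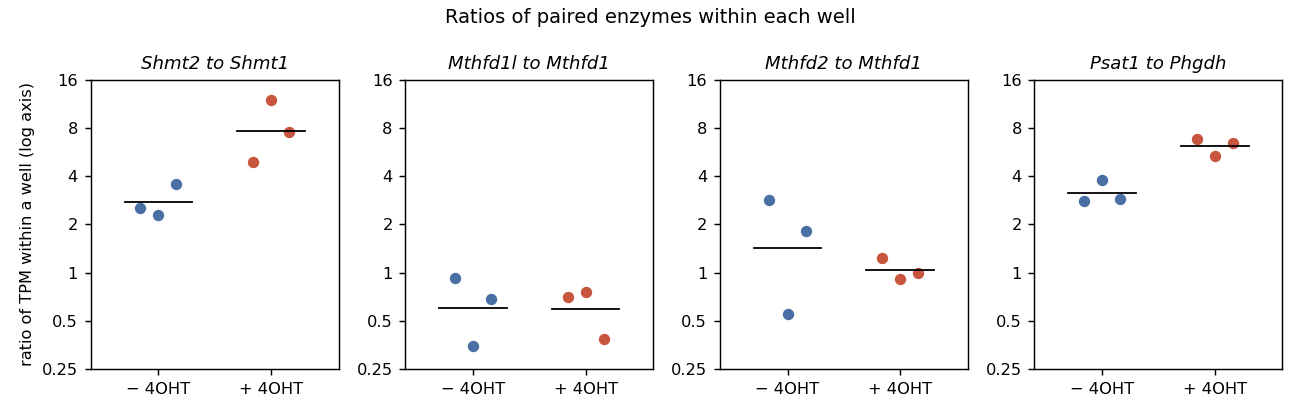
Ratio of the TPM of 2 enzymes within each well (log axis with doubling steps) for 4 pairs, with OSKA − 4OHT wells in blue, OSKA + 4OHT wells in red and the mean on the log scale as a line. The ratios of *Shmt2* to *Shmt1* and of *Psat1* to *Phgdh* do not overlap between the groups (2.29 to 3.59 against 4.87 to 12.0, and 2.81 to 3.80 against 5.31 to 6.80), while those among the MTHFD enzymes do. For *Shmt2* to *Shmt1* this follows from the separation of each gene alone.

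Of the folate interconversion enzymes, *Mthfd1l*, the mitochondrial enzyme that releases formate (chromosome 10, 3973118 to 4167081, plus strand), had 12.3, 10.0 and 11.2 TPM without 4OHT and 17.5, 18.3 and 13.0 TPM with it. The groups did not overlap, with OSKA + 4OHT replicate 3 nearest to the controls. The means were 11.2 ± 1.15 and 16.3 ± 2.84 TPM, a log2 fold change of 0.51 (standard error 0.210, interval 0.0047 to 1.02, adjusted p = 0.230 from limma-trend). *Mthfd1*, the cytosolic enzyme that takes up formate (chromosome 12, 76255298 to 76319803, plus strand), had 13.3, 28.9 and 16.4 TPM without 4OHT and 24.8, 24.2 and 33.9 TPM with it. Here OSKA − 4OHT replicate 2 lay among the wells with 4OHT, and the log2 fold change was 0.55 (interval -0.22 to 1.31, adjusted p = 0.386 from limma-trend). With a well left out it was 0.32 to 0.86, the highest without OSKA − 4OHT replicate 2. *Mthfd2*, the mitochondrial dehydrogenase and cyclohydrolase (chromosome 6, 83305691 to 83325908, minus strand), had 37.7, 15.8 and 30.0 TPM without 4OHT and 30.5, 22.1 and 33.6 TPM with it. The wells with 4OHT all fell inside the range of those without it, and the log2 fold change was 0.11 (interval -0.74 to 0.96, adjusted p = 0.892 from limma-trend), with a sign that turned to -0.021 after TMM scaling. The ratios of *Mthfd1l* to *Mthfd1* and of *Mthfd2* to *Mthfd1* overlapped between the groups, with log2 differences of -0.036 and -0.44 (exact 2-sided permutation p = 1.0 and 0.6, adjusted 1.0 and 0.8).

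*Tdh* did not pass the test and *Gldc* could not be tested. *Tdh*, threonine dehydrogenase (chromosome 14, 63492347 to 63509092, minus strand), had 46.5, 20.9 and 33.0 TPM without 4OHT and 33.5, 29.8 and 24.8 TPM with it. All 6 wells thus held it at over 20 TPM, and the wells with 4OHT lay inside the range of the others. Its log2 fold change was -0.12 (interval -0.87 to 0.62, adjusted p = 0.851 from limma-trend), and 0.15 without OSKA − 4OHT replicate 1. Of its 50-base words, 10.2% also occur in *Gm13929*, which was listed at 0 except for 0.521 TPM in OSKA − 4OHT replicate 2. *Gldc*, the decarboxylase of the glycine cleavage system (chromosome 19, 30098447 to 30175429, minus strand), was listed at 0, 0.294 and 0.655 TPM without 4OHT and at 0.473, 0.830 and 0.825 TPM with it. These are low values whose read support is unknown, the gene did not reach the mean of 1 TPM needed for the test, and no fold change is given. *Zmynd8* shares 1.29% of the 50-base words of *Gldc*. Its level was 30.9, 48.6 and 40.1 TPM without 4OHT and 138, 84.7 and 54.7 TPM with it, and its part in the *Gldc* value was not tested.

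**Figure D3:**
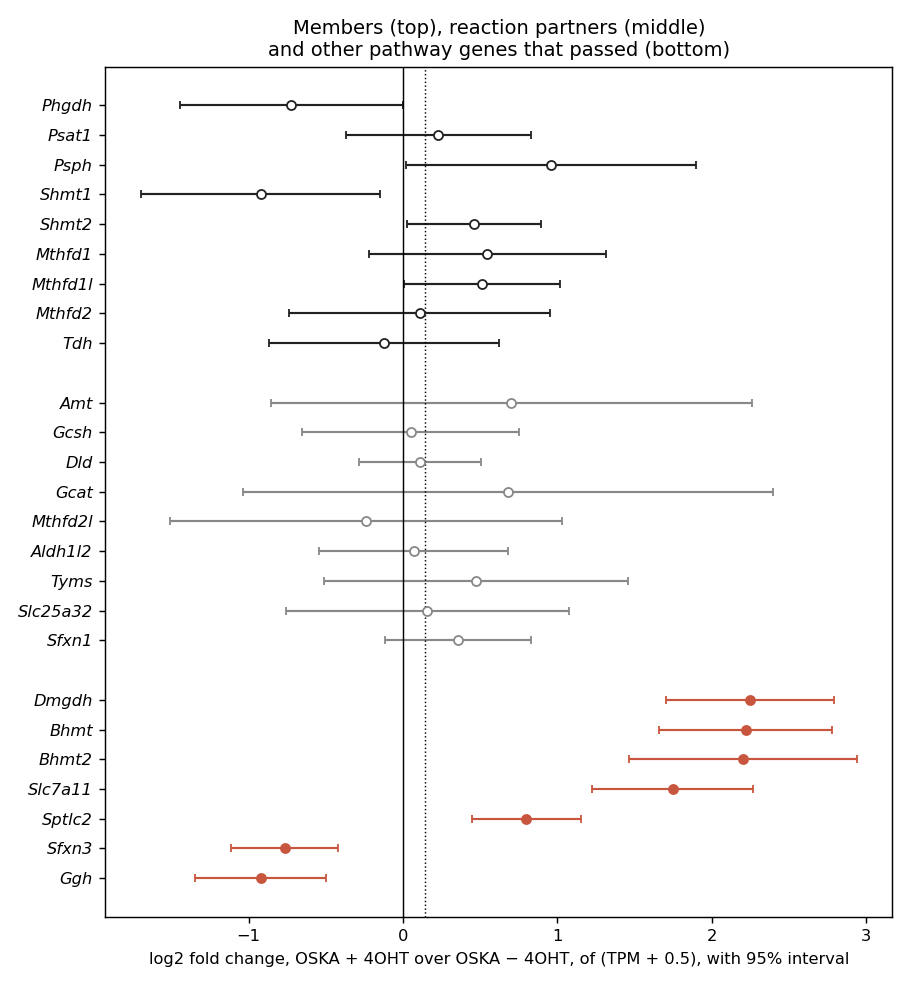
Log2 fold change of (TPM + 0.5) in the OSKA + 4OHT over the OSKA − 4OHT group (horizontal axis) with the 95% interval of limma-trend, for the 9 tested enzymes (black), 9 of their direct reaction partners (gray) and the 7 other genes of the pathway lists that passed (filled red). The solid line marks 0 and the dotted line 0.14, the median of all tested genes. The intervals of *Shmt1* (-1.70 to -0.15) and *Psph* (0.019 to 1.90) lie on opposite sides of 0. Intervals are per gene and not adjusted over genes, and neither of these enzymes passed the test.

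A short sequence that the choice by symbol did not use was searched near the RefSeq starts of these genes. The 250 bases before the RefSeq start (GRCm38.p6) were read for 9 of the 10 enzymes, in 10 windows, as *Psat1* has 2. The pentamer CCAAT, the box bound by NF-Y, was searched on both strands, where it reads ATTGG on the other. It was found in 7 of the 10 windows, those of *Phgdh*, *Psph*, *Shmt1*, *Mthfd1*, *Mthfd2* and *Gldc* and the first of *Psat1*, and in 33.8% of all 32851 windows of this length, so that matches by letters alone are common. The second *Psat1* window and those of *Shmt2* and *Mthfd1l* hold none. The RefSeq starts are not the outer ends of the GENCODE genes given above, so that the windows of *Psat1*, *Shmt1* and *Mthfd2* and the boxes of *Psph* lie inside the annotated gene. The windows of *Psph* and *Mthfd1* are covered by annotated exons, of any gene, over all 250 bases. The motif TGATGNAAT, of the kind bound by ATF4 with a C/EBP partner, was in no window of an enzyme and in 0.816% of all windows, and the E-box CACGTG was in none and in 6.02%. No matches overlapped in these windows, and a match is a description only. The windows of *Phgdh* and *Psat1* are shown because the ratio of this pair separated the groups, and that of *Shmt2* because it lacks the box that *Shmt1* has. Capitals mark CCAAT on either strand, and the first *Psat1* window is given.
*Phgdh*, chr3:98339970-98340219, minus strand: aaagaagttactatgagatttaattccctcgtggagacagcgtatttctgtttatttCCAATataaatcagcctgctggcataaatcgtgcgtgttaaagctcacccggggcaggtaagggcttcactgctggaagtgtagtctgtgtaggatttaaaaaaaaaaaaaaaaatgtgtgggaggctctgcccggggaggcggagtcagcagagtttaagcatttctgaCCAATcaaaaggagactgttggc
*Psat1*, chr19:15925060-15925309, minus strand: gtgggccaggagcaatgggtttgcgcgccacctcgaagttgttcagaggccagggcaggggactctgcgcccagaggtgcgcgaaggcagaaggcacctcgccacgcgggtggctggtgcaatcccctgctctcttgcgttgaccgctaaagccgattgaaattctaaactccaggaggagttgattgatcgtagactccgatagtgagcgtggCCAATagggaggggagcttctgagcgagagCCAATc
*Shmt2*, chr10:127522445-127522694, minus strand: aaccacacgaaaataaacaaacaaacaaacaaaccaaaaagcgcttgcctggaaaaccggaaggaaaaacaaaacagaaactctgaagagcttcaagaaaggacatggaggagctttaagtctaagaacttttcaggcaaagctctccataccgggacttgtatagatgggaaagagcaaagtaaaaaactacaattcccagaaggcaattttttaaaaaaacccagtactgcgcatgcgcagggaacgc
The boxes nearest the start begin 23 bases before it in *Phgdh*, 6 bases in *Psat1* and 47 bases in *Shmt1*. Where all wells with 4OHT lay lower, *Phgdh* and *Shmt1* have the box. Where they lay higher, *Psph* has it and *Shmt2* and *Mthfd1l* do not. *Psat1* (in its first window), *Mthfd1*, *Mthfd2* and *Gldc*, whose wells overlapped, have it as well. Any part of the box in these levels was not tested.

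Direct reaction partners of the enzymes, 9 of which are given here, were chosen by hand and are examples only. Their adjusted p-values lay between 0.362 and 0.945 by limma-trend, and the counts over the whole lists follow below. In the glycine cleavage system, *Gcsh*, the carrier protein, had 37.0 ± 8.43 TPM without and 38.9 ± 12.2 TPM with 4OHT, and *Dld*, the shared dehydrogenase subunit, 62.2 ± 9.75 and 66.7 ± 5.75 TPM. *Amt*, the aminomethyltransferase, was low at 0.446 to 3.82 TPM over all wells. *Gcat*, which takes the product of *Tdh* on to glycine, varied from 2.95 to 16.3 TPM without 4OHT and from 6.23 to 24.8 TPM with it. Its wells thus differed more within a group than the group means did. *Sfxn1*, a mitochondrial serine transporter whose relative *Sfxn3* is not among the 9 and passed (below), had 30.4, 36.1 and 28.3 TPM against 48.6, 40.3 and 33.5 TPM, groups that overlapped. *Tyms*, thymidylate synthase, had 61.9, 56.4 and 21.2 TPM against 65.5, 54.5 and 56.7 TPM, where OSKA − 4OHT replicate 3 alone was low. For *Mthfd2l*, *Aldh1l2* and *Slc25a32*, which oxidise or carry folates, the log2 fold changes lay between -0.24 and 0.16.

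In 6 lists of 69 neighbouring genes, 64 could be tested, 5 were higher (against 3.52% of all tested genes) and 2 were lower (against 1.97%), and the groups did not overlap in 16 of the 64 (against 28.2%). The 5 were *Bhmt*, *Bhmt2*, *Dmgdh*, *Sptlc2* and *Slc7a11*, and the 2 were *Ggh* and *Sfxn3*. The median log2 fold change of the 64 was 0.27, beside 0.14 for all tested genes. By list, the counts of higher and lower genes were 0 and 0 of 7 for partners of glycine cleavage and threonine breakdown, 0 and 1 of 13 for other folate enzymes, and 0 and 1 of 11 for folate and serine transport. They were 2 and 0 of 10 for the methionine cycle, 2 and 0 of 13 for other users of serine and glycine, and 1 and 0 of 10 for ATF4 and its targets. *Atf4* itself, the factor that drives serine synthesis genes under amino acid stress, had 105 ± 28.6 TPM without 4OHT and 104 ± 18.5 TPM with it. These are mRNA levels, and the activity of the factor was not tested.

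Of the 7 genes that passed, *Dmgdh*, *Bhmt* and *Bhmt2* had the largest fold changes. *Bhmt*, betaine-homocysteine methyltransferase, which makes methionine from homocysteine without folate, rose from 3.74, 2.78 and 3.33 TPM to 16.7, 20.2 and 14.6 TPM. *Bhmt2*, its paralog that uses S-methylmethionine, rose from 1.38, 1.77 and 1.91 TPM to 13.0, 7.95 and 8.23 TPM. *Dmgdh*, the mitochondrial dehydrogenase that oxidises the dimethylglycine left by *Bhmt* and passes the carbon to folate, rose from 2.05, 2.57 and 2.71 TPM to 12.9, 14.5 and 12.9 TPM. For each of them the wells of both groups were far apart, and the OSKA + 4OHT mean was 5.23, 5.78 and 5.50 times that of the OSKA − 4OHT group. The log2 fold changes were 2.22 (standard error 0.232, adjusted p = 0.00669), 2.20 (0.307, 0.0152) and 2.25 (0.226, 0.00586) from limma-trend. With a well left out, the adjusted p-values of *Bhmt* (0.0214 to 0.0454) and *Dmgdh* (0.0201 to 0.0436) stayed under 0.05. That of *Bhmt2* was 0.0529 without OSKA − 4OHT replicate 2, 0.0745 without OSKA + 4OHT replicate 1 and 0.0613 without OSKA + 4OHT replicate 2.

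*Bhmt*, *Bhmt2* and *Dmgdh* are neighbours on chromosome 13 (GRCm38, *Bhmt* at 93616675 to 93637961 and *Bhmt2* at 93655720 to 93674302 on the minus strand, *Dmgdh* at 93674433 to 93752833 on the plus strand). *Bhmt2* and *Dmgdh* start back to back with 130 bases between them, and 17758 bases lie between *Bhmt* and *Bhmt2*. The interval between the divergent starts is shown because genes on both its sides rose. It holds no annotated exon, 70.8% of its bases are G or C, and none of the 3 motifs occurs in it. Its sequence on the plus strand (RefSeq, GRCm38.p6), with no part marked, is as follows.
*Bhmt2* to *Dmgdh*, chr13:93674303-93674432, plus strand: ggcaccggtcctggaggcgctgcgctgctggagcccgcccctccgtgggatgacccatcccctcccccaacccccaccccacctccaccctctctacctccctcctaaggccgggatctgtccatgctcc
Of the 50-base words of *Bhmt*, 24.1% also occur in *Gm5096* and 13.5% in *Bhmt-ps1*, both listed at 0 in all 6 wells.

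**Figure D4:**
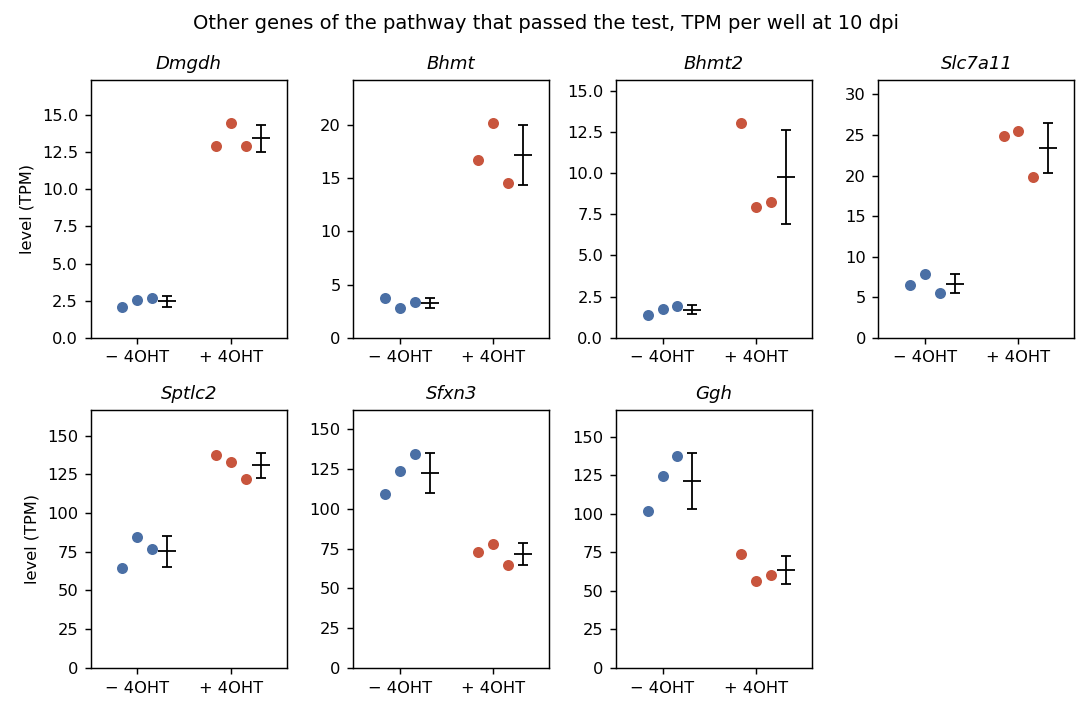
Level in TPM (vertical axes from 0, with different ranges) of the 7 genes of the pathway lists that passed the test, in the 3 OSKA − 4OHT wells (blue) and the 3 OSKA + 4OHT wells (red) at 10 dpi, with the mean and SD as black bars. *Dmgdh*, *Bhmt* and *Bhmt2* had at most 3.74 TPM in any well without 4OHT and at least 7.95 TPM in any well with it, and *Sfxn3* and *Ggh* were lower with 4OHT.

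*Slc7a11*, the cystine and glutamate exchanger, rose from 6.48, 7.90 and 5.56 TPM to 24.9, 25.5 and 19.9 TPM, with no overlap between the groups. In the fit it was 1.75 higher on the log2 scale (standard error 0.216, adjusted p = 0.0111 from limma-trend), and the adjusted p was 0.0609 without OSKA + 4OHT replicate 1 and 0.0585 without OSKA + 4OHT replicate 2. *Sptlc2*, a subunit of the enzyme that joins serine to a fatty acid in sphingolipid synthesis, rose from 64.7, 84.6 and 76.7 TPM to 138, 133 and 122 TPM (log2 fold change 0.80, p adjusted over all genes = 0.0336 from limma-trend). *Ggh*, the hydrolase that trims folate polyglutamates, fell from 102, 125 and 138 TPM to 73.9, 56.6 and 60.6 TPM (log2 fold change -0.92, p adjusted over all genes = 0.0379 from limma-trend). *Sfxn3*, a mitochondrial serine transporter like *Sfxn1*, fell from 109.6, 124 and 135 TPM to 72.6, 78.1 and 64.7 TPM (log2 fold change -0.77, p adjusted over all genes = 0.0360 from limma-trend). The wells of both groups were apart for all of them, but each of *Sptlc2*, *Ggh* and *Sfxn3* lost its call whichever single well was left out, with adjusted p-values of 0.0652 to 0.126, 0.0531 to 0.134 and 0.0606 to 0.118.

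Markers of cell state moved between the groups as well, and their part in the results above was not tested. The summed level of 8 fibroblast markers was 6889 to 8784 TPM without 4OHT and 4230 to 5590 TPM with it, most of it from *Vim*, *Col1a2* and *Col1a1*, and 3 of the 8 fell (1.97% of all tested genes did). *Thy1* went against the other 7, at 198, 208 and 133 TPM without 4OHT and 222, 268 and 389 TPM with it, and did not pass. Of the 8 proliferation markers 4 rose (3.52% of all tested genes did), and their sum went from 554 to 675 TPM to 805 to 1095 TPM. The 10 markers of pluripotent cells added up to 28.2 to 39.2 TPM without 4OHT and 95.1 to 117 TPM with it. Of the 8 tested, 5 rose (3.52% of all tested genes did). Of these 5, *Nanog*, *Zfp42* and *Dppa5a* averaged under 1 TPM without 4OHT and so reached the test only through the group where they were higher, which leaves *Tdgf1* and *Epcam*. In the OSKA − 4OHT group *Dppa4*, *Dppa5a*, *Utf1* and *Lin28a* were at 0 in all wells and *Nanog* in 2 of 3, while *Epcam* had 14.6 to 23.9 TPM, *Fgf4* 9.18 to 12.3 TPM, *Tdgf1* 1.10 to 1.95 TPM, *Esrrb* 0.177 to 2.04 TPM and *Zfp42* 0.310 to 0.723 TPM. The 6 macrophage markers summed to 120 to 152 TPM without 4OHT and 76.8 to 87.0 TPM with it. Only *Lyz2* of the 6 fell, from 95.2 ± 5.63 to 51.8 ± 7.77 TPM, and it makes up most of the sum. *Cd68* had 14.9 ± 2.92 TPM without 4OHT and 19.0 ± 3.46 TPM with it and did not pass. The 10 enzymes themselves added up to 246, 240.0 and 286 TPM without 4OHT and 304, 317 and 250.1 TPM with it, which overlapped.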

How the data were processed

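RNA of 6 wells, 3 per group, was sequenced as polyA libraries with 50-base single reads. The authors trimmed the reads with Trim Galore, quantified them against a mouse transcriptome with Salmon and deposited TPM per gene and well, scaled to 1000000 per well. The annotation release, the strand setting and the versions are not given in the sources used here. The deposited columns of the authors' own comparison (a log2 fold change, a log2 average, a score and a p-value) were not used.

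The authors' methods name edgeR, which needs counts. The TPM were therefore tested with limma-trend (limma 3.58.1, R 4.3.3) on log2(TPM + 0.5), without a replicate block, with Benjamini-Hochberg adjustment over the genes that averaged 1 TPM or more. Ratios were computed per well and tested by an exact 2-sided permutation test over wells. Symbols and positions came from GENCODE M21 by Ensembl identifier, and promoters from RefSeq. Shared 50-base words were counted over GENCODE transcripts with Python 3.11.15 and pandas 2.3.3. The fit was tested on simulated data, and the outcome of that test is not given here.

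The enzymes and lists were chosen with earlier results of these data known. The named genes are all enzymes, direct reaction partners (some of which are not reported here) and, per pathway list, up to 3 genes per direction that passed. The rule also asked for genes with the profile most like that of a passing enzyme, of which there was none. Where a symbol had more than 1 Ensembl identifier, the one with more annotated transcripts was used. The alternatives were other pseudocounts, filters, scalings (TMM factors computed on the TPM values, quantile) and variance models, a fold threshold, a replicate block and leaving out each well. Those for the pathway lists were added after seeing the data.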

Additional observations from a re-analysis of the deposited data

How the results depend on the processing

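No enzyme passed in either direction under any of the 17 alternatives. Among these, the fold threshold could only remove calls, so its outcome was fixed by the test as reported. The lowest adjusted p over the 144 alternative values of single enzymes was 0.107 (*Shmt1*, quantile normalization). The log2 fold change of *Mthfd2* was 0.11 in the test as reported, -0.021 after TMM scaling, -0.038 after quantile normalization and -0.25 to 0.37 with a well left out. That of *Tdh* was -0.42 to 0.15 with a well left out, and the other 7 enzymes kept their sign throughout. With a well left out, the ratio of *Mthfd1l* to *Mthfd1* differed by -0.42 to 0.26 and that of *Mthfd2* to *Mthfd1* by -1.11 to 0.049 on the log2 scale. Over all tested genes, 542 higher and 303 lower became 112 to 318 and 63 to 147 with a well left out, and 480 were lower after TMM scaling. Of the pathway genes, 5 higher and 2 lower became 2 to 4 and 0 with a well left out, and 0 were lower without the variance trend. The labels tie wells of the same replicate number by nothing but the number, and the correlations of their deviations were 0.024, 0.034 and 0.084. As a hint from the data, 5 of the 6 wells correlated best with their own number, and OSKA + 4OHT replicate 1 with OSKA − 4OHT replicate 2. With the replicate number as a block, 31 genes were higher and 16 lower, and 0 enzymes and 0 pathway genes passed in either direction. The adjusted p-values of *Bhmt*, *Dmgdh*, *Bhmt2* and *Slc7a11* were then 0.0657, 0.0640, 0.0939 and 0.0640 by limma-trend. With this block the exact permutation p of the ratios of *Shmt2* to *Shmt1* and *Psat1* to *Phgdh* was 0.25 each, the smallest that 3 pairs allow. For the first ratio this follows from the separation of its genes. The cause of these shifts was not tested, except that fits without a well have fewer samples. The depth is unknown, so counting error could not be given. A gene that did not pass is not shown to be unchanged.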
